A study of Homo sapiens with 18 samples.

Results

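The transcription factor ATF4 and 9 genes of the stress response that it drives together with CHOP were followed in HEK293 cells, a human embryonic kidney cell line, that lacked either UFM1 or UFSP2. The members are 10 transcripts, found by their Ensembl identifiers in the footprint and mRNA tables and kept because the deposited coding length equalled the protein length less one trim shared within each assay. They were 10 of 14377 footprint features and 10 of 15444 mRNA features, where a feature is a transcript or a set of transcripts with identical counts. UFM1 is a small modifier related to ubiquitin, and cells join it to target proteins that include a ribosomal protein. UFSP2 is a protease that cuts UFM1 off again.

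The study compared 3 lines: the WT HEK293 cells, a UFM1-KO line made with Cas9 and the guide RNA sgUFM1, and a UFSP2-KO line made the same way with sgUFSP2. Each knockout line is 1 clone, so a difference between lines cannot be told apart from a difference between clones. All lines grew in the same medium, and no stress agent or other treatment is named in the labels. Ribosome footprints were sequenced from a cytosolic and a membrane extract of each line, and mRNA from whole-cell lysates, with 2 libraries per group, here called a and b as in the labels. The labels do not say that the 2 libraries came from separate cultures, so the p-values measure only the spread between these libraries, which may be technical. The deposited counts summed to between 1393032 and 11388755 per footprint library and between 37451244 and 68675420 per mRNA library. The tables do not pair transcript identifiers with gene names, so markers of HEK293 cells or of the fractions, the 2 targeted genes and further ATF4 targets were not used here.

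As background, the integrated stress response begins when a kinase phosphorylates the initiation factor eIF2α, which lowers translation in general. The ATF4 mRNA carries short upstream open reading frames, so ribosomes reach its main coding sequence more often when eIF2α is phosphorylated. ATF4 and its target CHOP then raise genes for amino acid synthesis, amino acid import and the stress response itself, and stress of the endoplasmic reticulum is one of the signals that starts this programme.

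The regulators were ATF4 (ENST00000337304, gene at chr22:39520559-39522686), DDIT3 (ENST00000346473, chr12:57516588-57520517), which encodes CHOP, and TRIB3 (ENST00000217233, chr20:380760-397559), a pseudokinase that restrains ATF4 and CHOP. The enzymes were ASNS (ENST00000175506, chr7:97851677-97928441), which makes asparagine, PHGDH (ENST00000369409, chr1:119711934-119744215) and PSAT1 (ENST00000376588, chr9:78297125-78330093), which carry out the first and the next step of serine synthesis, and MTHFD2 (ENST00000394053, chr2:74198615-74217565), a mitochondrial folate enzyme. The amino acid transporters were SLC7A5 (ENST00000261622, chr16:87830023-87869507), the light chain of a carrier for large neutral amino acids, and SLC7A11 (ENST00000280612, chr4:138164097-138242349), the cystine and glutamate exchanger. SESN2 (ENST00000253063, chr1:28259518-28282491) encodes sestrin 2, a leucine sensor that restrains mTORC1. Gene positions are those of RefSeq on GRCh38.p14, and the deposited lengths are those of the coding sequence. The deposited length was the protein length less 20 codons for footprints and less 19 for mRNA in all 10. RefSeq lists pseudogene copies of ATF4, ASNS, PSAT1, MTHFD2 and SLC7A5, and how reads shared with such copies were counted is not given in the sources used here.

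C/EBP and ATF proteins bind together at a composite element whose core was searched as TGATGNAA and, for the other strand, as TTNCATCA. No other motif was searched. RefSeq promoter windows of 300 bases, 250 before and 50 after a start site, were matched for 9 members with 14 windows, and 1 member held the core. Of all 35116 windows in the table, 3.62% held it. The 250 bases before the start are shown for ASNS, the member with the match, and for PHGDH, the member that differed most firmly between the lines. The ASNS stretch lies at chr7:97872409-97872658 on the minus strand, and its capitals mark the match, which begins 68 bases before the start. The PHGDH stretch lies at chr1:119711684-119711933 on the plus strand and holds no match in these letters. A match is a description of the sequence only.

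ASNS: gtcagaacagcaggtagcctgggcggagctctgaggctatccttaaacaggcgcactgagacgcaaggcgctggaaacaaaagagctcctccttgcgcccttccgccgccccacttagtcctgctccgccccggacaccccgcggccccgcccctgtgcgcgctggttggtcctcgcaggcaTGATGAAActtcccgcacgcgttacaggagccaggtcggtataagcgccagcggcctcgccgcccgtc

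PHGDH: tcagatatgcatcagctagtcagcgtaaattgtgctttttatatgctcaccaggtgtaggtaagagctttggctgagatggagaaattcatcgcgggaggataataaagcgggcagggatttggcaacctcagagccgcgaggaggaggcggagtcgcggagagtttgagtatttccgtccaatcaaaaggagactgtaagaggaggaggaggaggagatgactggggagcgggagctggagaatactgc

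Levels of different genes were compared as counts per codon, scaled to the same sum over all features in every library. In WT mRNA, ATF4 was far above the rest at 790 ± 21.0 (SD, n = 2). MTHFD2 came next at 140 ± 12.7 and then PHGDH at 118 ± 27.1, and these 2 did not differ beyond their spread. PSAT1 stood at 79.2 ± 9.16 and ASNS at 48.8 ± 5.87. SLC7A5 at 37.4 ± 7.96 and TRIB3 at 37.4 ± 6.03 were level with each other. DDIT3 at 28.4 ± 1.82 and SESN2 at 21.9 ± 5.28 were lower, and SLC7A11 was lowest at 12.5 ± 2.59.

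The order in WT membrane footprints was another. PHGDH was highest at 246 ± 12.4 per codon, followed by PSAT1 at 114 ± 8.54 and SLC7A5 at 100 ± 6.59, which lay within their summed spread of each other. ATF4, the most abundant of the 10 mRNAs, was only at 23.9 ± 4.23. The remaining members ran from ASNS at 55.3 ± 11.3 down to DDIT3 at 1.36 ± 0.138. In WT cytosol footprints PHGDH at 165 ± 14.0 and PSAT1 at 111 ± 4.92 led again, while ATF4 stood at 33.8 ± 5.75, SLC7A5 at 0.715 ± 0.312 and SLC7A11 at 0 in both libraries.

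**Figure D1:**
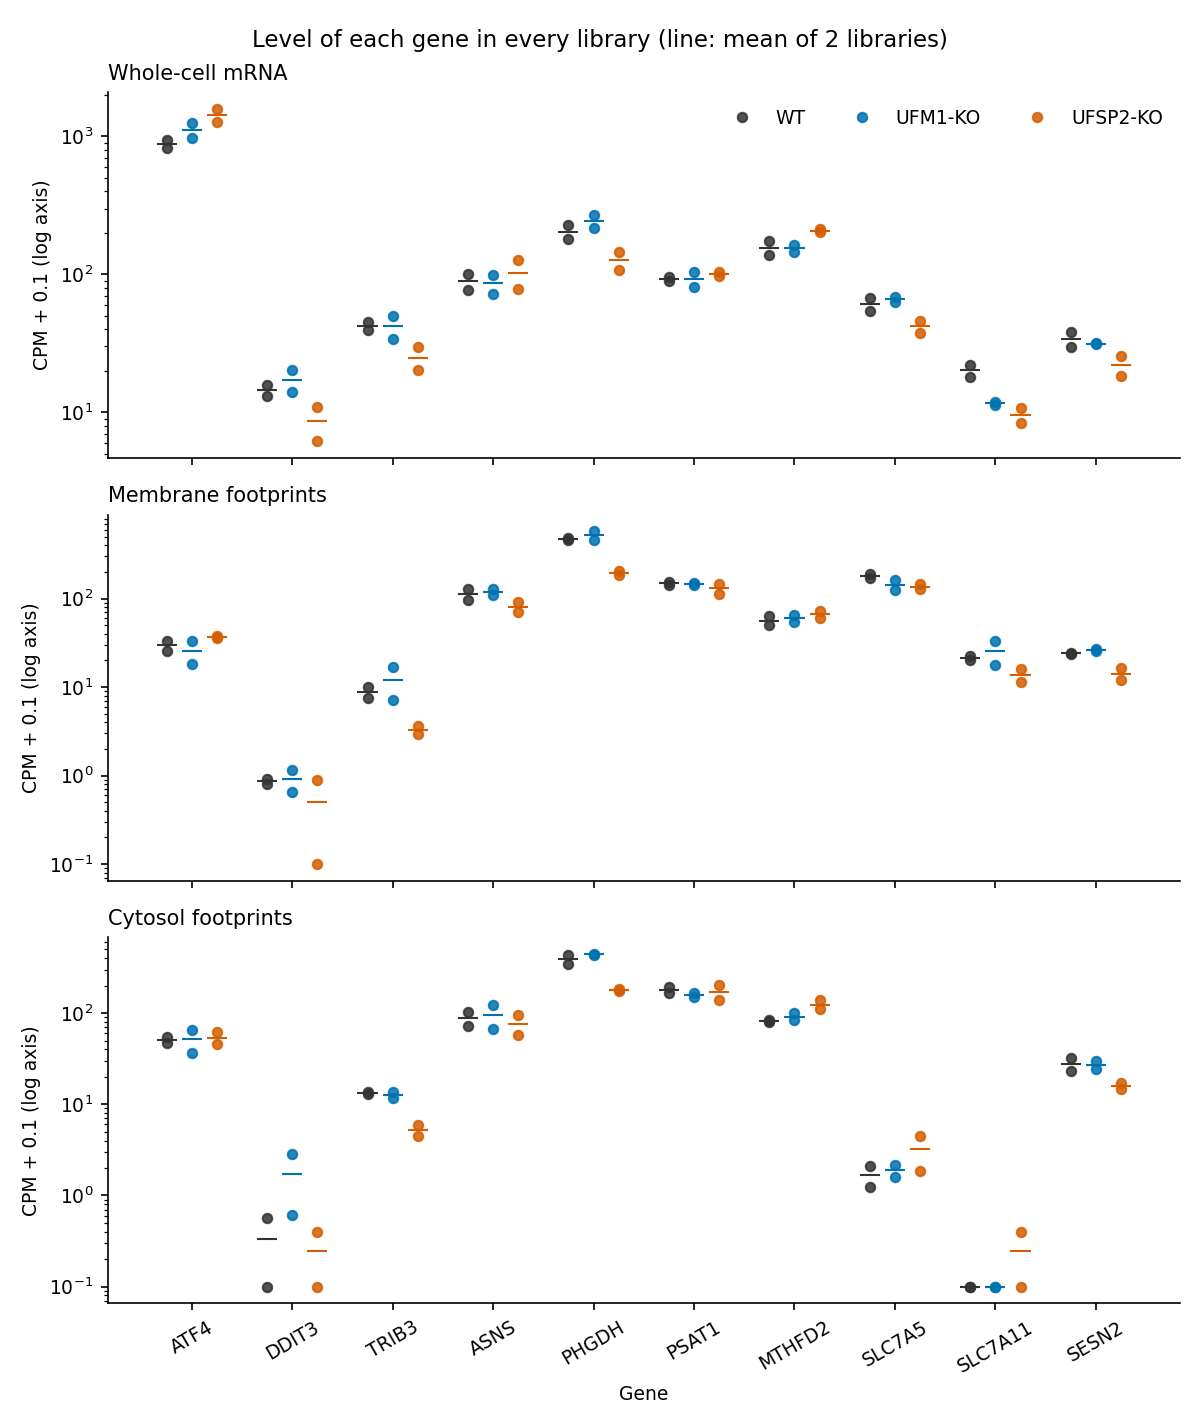
CPM (each count scaled by the TMM size of its library; plus 0.1, log axis) of each gene in whole-cell mRNA, membrane footprints and cytosol footprints; points are the 2 libraries of a line and short lines their mean. PHGDH, TRIB3 and SESN2 footprints lie lower in both UFSP2-KO libraries than in any WT or UFM1-KO library of the same fraction. The share of all features that do so was not counted. SLC7A11 is at or near 0 in the cytosol.

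The plot of levels by library shows PHGDH, TRIB3 and SESN2 footprints lowest in the UFSP2-KO libraries of both fractions, ATF4 mRNA highest and SLC7A11 mRNA lowest in the UFSP2-KO libraries, and that the 2 transporters were nearly confined to the membrane footprints.

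Footprints relative to mRNA in WT cells were tested with edgeR's quasi-likelihood test in a model over all 18 libraries, and a feature counts as called where the p adjusted by Benjamini and Hochberg's method over all features tested is under 0.05. The normalised log2 ratio is relative to the average feature and had a median of -0.12 over all features in the membrane and -0.53 in the cytosol. DDIT3 passed the filter of this model only through its mRNA and is left out of the count. In the membrane fraction 8 of the other 9 members were called, 5 higher and 3 lower, beside 55.8% of all features, and their median was 0.74. In the cytosol 57.6% of all features were called, and no count of members is given there because the 2 transporters had hardly any footprints.

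ATF4 had few footprints for its mRNA. ATF4 mRNA stood at 939 and 822 CPM in the WT libraries, near percentile 98.7 of all features per codon. Its membrane footprints stood at 33.5 and 25.7 CPM and its cytosol footprints at 55 and 47 CPM. Its log2 ratio of membrane footprints to mRNA was -4.26 (SE 0.29, edgeR adjusted p = 2.27e-12), and only 0.958% of features had a lower one. In the cytosol the ratio was -3.48 (SE 0.28, edgeR adjusted p = 3.35e-11), with 16.8% of features lower. The deposited length is that of the main coding sequence less its trim, and upstream reading frames were not analysed here.

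DDIT3 had 22 footprints in all 12 footprint libraries together, at most 5 in a library and 0 in 3 of them, against 303 and 292 mRNA counts in the WT libraries. DDIT3 mRNA was 12.3-fold above its membrane footprints in WT (95% counting interval 5.94 to 30.8, from 595 and 7 counts after scaling by library) and 24-fold above its cytosol footprints (6.6 to 198, from 595 and 2 counts). These intervals cover counting error only, and both folds are a description. DDIT3 fell below the filter on low counts in the footprint model and passed the joint model only through its mRNA, so no footprint change between lines is given for it.

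TRIB3, the third regulator, also lay on the low side, with -1.58 for membrane (SE 0.32, edgeR adjusted p = 0.000135) and -1.0 for cytosol footprints (SE 0.33, edgeR adjusted p = 0.0119). The cytosol call was lost without WT cytosol library b (-1.05, edgeR adjusted p = 0.11), without WT mRNA library b (-0.91, edgeR adjusted p = 0.0537), with the trend over coding length removed (-0.061, edgeR adjusted p = 0.88), and with DESeq2 (-0.79, adjusted p = 0.0813). MTHFD2 was lower in the membrane, at -0.79 (SE 0.21, edgeR adjusted p = 0.00243; 0.0513 without WT membrane library a), and stood at -0.28 in the cytosol (edgeR adjusted p = 0.28; 0.65 with an edgeR adjusted p of 0.00856 once the length trend was removed).

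The serine enzymes lay on the other side. PHGDH had a log2 ratio of 1.88 for membrane (SE 0.21, edgeR adjusted p = 2.33e-08) and of 1.61 for cytosol footprints (SE 0.21, edgeR adjusted p = 2.32e-07). PSAT1 had 1.35 (SE 0.21, edgeR adjusted p = 4.24e-06) and 1.61 (SE 0.21, edgeR adjusted p = 2.77e-07), and 95.4% of features lay below each of these 2 enzymes in the cytosol. ASNS was called at 1.0 (SE 0.27, edgeR adjusted p = 0.00288) and 0.68 (SE 0.28, edgeR adjusted p = 0.0404). The ASNS calls were lost without WT mRNA library b in both fractions (0.81 and 0.49, edgeR adjusted p = 0.0511 and 0.245) and without library b of the WT footprints (0.78 in the membrane and 0.36 in the cytosol, edgeR adjusted p = 0.0695 and 0.471). With library size alone as scaling, the ASNS values were 0.18 and -0.019.

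SESN2 stood near the average feature, with 0.18 for membrane (edgeR adjusted p = 0.558) and 0.30 for cytosol footprints (edgeR adjusted p = 0.35). With library size alone as scaling, the SESN2 membrane value was -0.64 (edgeR adjusted p = 0.0277). SLC7A5 membrane footprints were high for its mRNA, at 2.25 (SE 0.22), with 95.1% of features lower. SLC7A11 stood at 0.74 (SE 0.31, edgeR adjusted p = 0.0414), and this call was lost when any 1 of the 4 WT libraries was left out, with edgeR adjusted p from 0.0641 to 0.205. With library size alone as scaling its value was -0.078, and with no filter it was 0.72 and no longer called (edgeR adjusted p = 0.0507). Both transporters passed the filter on footprints only through the membrane libraries, and their cytosol values are given with the fractions.

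**Figure D2:**
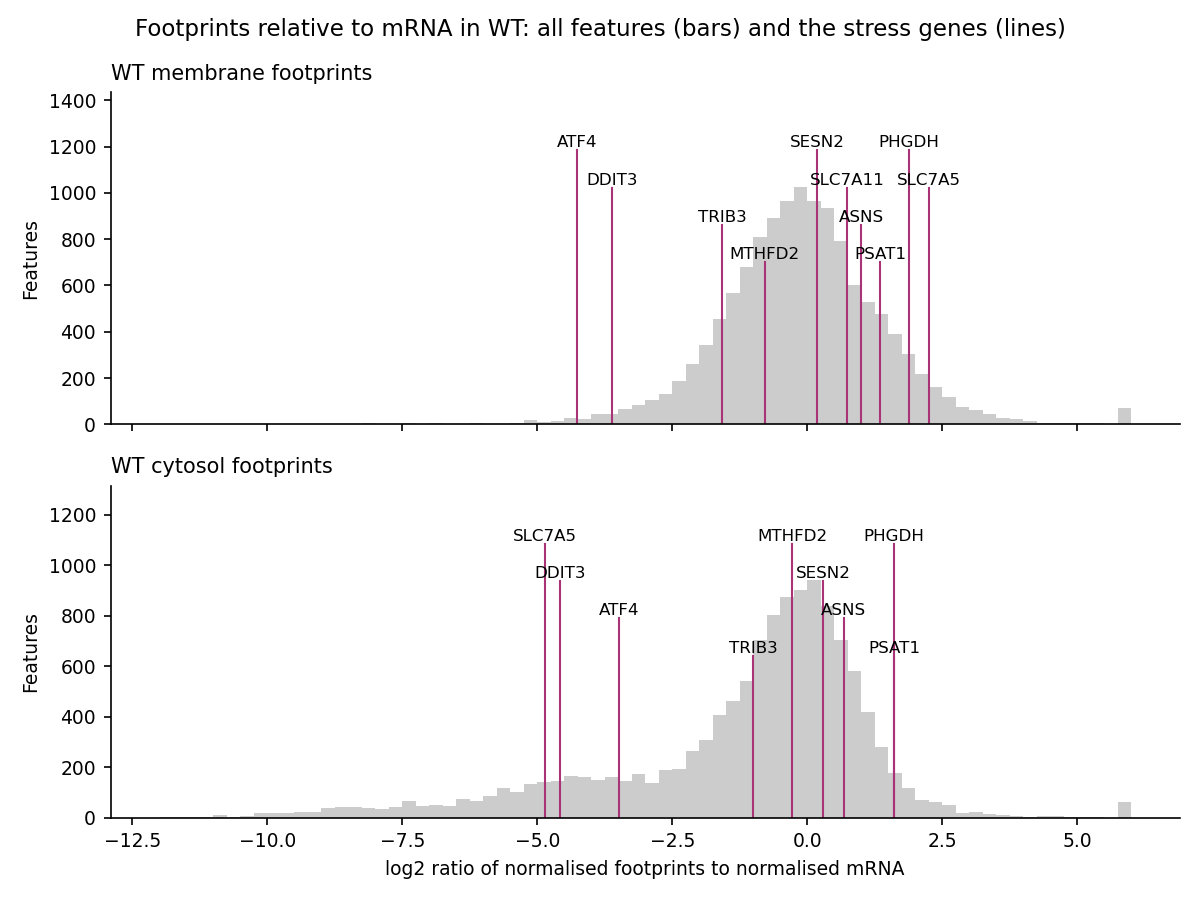
Histogram of the log2 ratio of normalised footprints to normalised mRNA in WT cells over 12629 features (grey, values beyond the axis ends pooled in the end bars), with a line at each stress gene; SLC7A11 has no line in the cytosol because both of its libraries are at 0. ATF4 sits in the low tail, and PHGDH and PSAT1 on the high side in both fractions. DDIT3, and SLC7A5 in the cytosol, also lie low, but they passed the filter only through other libraries.

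The histogram of footprints relative to mRNA has a long low tail in the cytosol and a short one in the membrane. In the membrane ATF4, at -4.26, stands apart from the other members that passed the filter on footprints. DDIT3, at -3.61 there, and SLC7A5 in the cytosol tail passed the filter only through other libraries. Their low places therefore carry no weight of their own.

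Membrane and cytosol footprints were then set against each other in each line. The transporters, proteins that span the membrane, were found almost wholly in the membrane fraction. SLC7A5 had 470 and 1236 membrane footprints and 2 and 5 cytosol footprints in WT cells, a ratio of library-scaled counts of 135 (95% counting interval 65.6 to 338). The ratio was 86.9 in UFM1-KO cells (39.8 to 237) and 55.9 in UFSP2-KO cells (31 to 113), and these intervals overlap. SLC7A11 had 49 and 158 membrane footprints and none in the cytosol of WT cells, which with a floor of 3 counts over the group is at least 38.4-fold higher in the membrane. It was at least 25.1-fold higher in UFM1-KO cells, from 159 counts against 0, and 63.6-fold higher in UFSP2-KO cells (95% counting interval 11 to 2550), from 60 counts against 1. The bounds rest on the floor and this ratio on 1 count, so they give no order of the lines.

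The other 7 members tested lay close to even between the fractions, with log2 ratios from -0.91 to 0.32 over the 3 lines. ATF4 leaned to the cytosol in WT cells (-0.79, SE 0.28, edgeR adjusted p = 0.0277) and the UFM1-KO line (-0.88, SE 0.29, edgeR adjusted p = 0.0199) and stood at -0.50 in UFSP2-KO cells (SE 0.29, edgeR adjusted p = 0.189). The WT call was lost without membrane library b (-0.58, adjusted p = 0.266), cytosol library a (-0.70, 0.0729) or cytosol library b (-0.92, 0.0611) in edgeR. The UFM1-KO call was lost without membrane library b (-0.59, adjusted p = 0.227) or cytosol library a (-0.42, 0.425) in edgeR. DESeq2 called ATF4 in neither line (adjusted p = 0.187 and 0.0636). The WT call was also lost with RLE size factors (-0.70, edgeR adjusted p = 0.0601).

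MTHFD2 leaned to the cytosol in UFSP2-KO cells (-0.91, SE 0.22, edgeR adjusted p = 0.00152) and UFM1-KO cells (-0.62, SE 0.22, edgeR adjusted p = 0.0394), and stood at -0.52 in WT cells (SE 0.22, edgeR adjusted p = 0.0681). The UFM1-KO call of MTHFD2 was lost without membrane library a (-0.48, adjusted p = 0.287), membrane library b (-0.73, 0.0617) or cytosol library a (-0.49, 0.226) in edgeR, and with DESeq2 (adjusted p = 0.111). PHGDH, PSAT1, ASNS, TRIB3 and SESN2 were called in none of the 3 lines by edgeR. The share of all features called was 37.5% for WT cells, 28.9% for the UFM1-KO line and 36.9% for the UFSP2-KO line, and the transporters and 1 or 2 further members gave 3, 4 and 3 of 9 members tested. The transporters entered the test only through their membrane counts, so their calls carry no weight of their own. Removing the trend over coding length moved the median of all features from -0.02 to -0.84 in WT cells. All 9 members were then called, beside 79.2% of all features. PHGDH (-0.64), ASNS (-0.60) and, in UFM1-KO cells, TRIB3 (-0.85) changed sign with it, so small leanings to one fraction are relative to that choice.

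By edgeR's interaction test no change in a member's ratio of membrane to cytosol footprints was called in a knockout line. The count was 0 of 8 members with a fold in either line, beside 0.00904% of all features in each. A test that calls so few features cannot show that the ratios stayed the same. At an unadjusted p under 0.05 there were also 0 members, beside 4.87% of features for UFM1-KO and 4.4% for UFSP2-KO. DESeq2 called 0 members, beside 0.0% and 0.0139% of features. The largest fitted shifts were those of SLC7A5, which rest on 6, 7 and 11 cytosol counts per line, at -0.73 (SE 0.83) in UFM1-KO and -1.30 (SE 0.73) in UFSP2-KO cells.

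**Figure D3:**
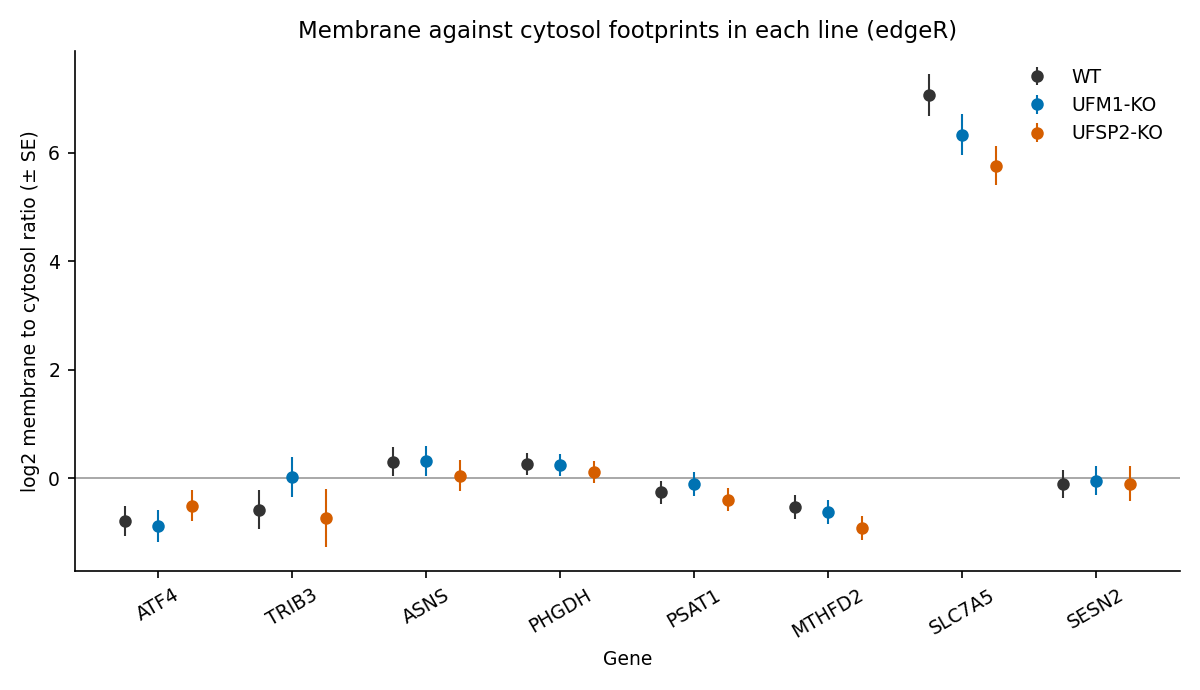
Log2 ratio of membrane to cytosol footprints (edgeR, ± SE) for 8 genes in WT, UFM1-KO and UFSP2-KO cells. DDIT3 was not tested, and SLC7A11 is not drawn because its cytosol counts are 0 in 2 lines. SLC7A5 lies between 5.76 and 7.06, and the other 7 genes between -0.91 and 0.32.

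The plot of membrane to cytosol ratios shows the 3 lines side by side: for each gene they lie within 1.3 log2 units of each other, and the widest span is that of SLC7A5.

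UFM1-KO cells, which lack the modifier itself, were compared with WT cells, and no member was called in any of the 3 measurements. In mRNA 0 of 10 were called by edgeR, beside 1.97% of all features, and the median log2 change was -0.011 over the members and -0.0064 over all features. SLC7A11 mRNA stood at 11.8 and 11.2 CPM in UFM1-KO libraries and at 18 and 22 CPM in WT libraries. These groups do not overlap, and the change of -0.80 (SE 0.29, edgeR adjusted p = 0.168) missed the threshold. It was the only member at an unadjusted p under 0.05, beside 16.2% of features, and DESeq2 called 0 members, beside 3.58%. In bulk cells, fewer cells that express a gene and less RNA of it per cell cannot be told apart.

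ATF4 mRNA stood at 979 and 1250 CPM in UFM1-KO cells, both above the WT libraries, with a log2 change of 0.34 (SE 0.20, edgeR adjusted p = 0.431). DDIT3 mRNA overlapped, at 14 and 20.1 CPM against 15.6 and 13. The other 7 members lay between -0.10 and 0.26.

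In UFM1-KO membrane footprints 0 of 9 members were called by edgeR (1.26% of features), 0 at an unadjusted p under 0.05 (11.2%) and 0 by DESeq2 (0.815%). In the cytosol the counts were 0 of 8 members with a fold by edgeR (0.85%), 0 unadjusted (11.4%) and 0 by DESeq2 (1.48%). The 8 include SLC7A5, which passed the filter only through its membrane libraries. The widest member change was TRIB3 in the membrane, at 0.54 (SE 0.34, edgeR adjusted p = 0.619), from 16.8 and 6.97 CPM against 7.35 and 9.91 in WT. The first UFM1-KO library was above and the other below both WT libraries. Without the higher one, UFM1-KO membrane library a, the TRIB3 value was -0.35.

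In UFSP2-KO cells ATF4 mRNA was higher and SLC7A11 mRNA lower than in WT cells. By edgeR 2 of 10 members were called in mRNA, 1 in each direction, beside 7.18% of all features. The median log2 change was -0.58 over the members and -0.0088 over all features. DESeq2 also called 2 members, and its share of all features is not given here.

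ATF4 mRNA stood at 1590 and 1270 CPM in UFSP2-KO libraries and at 939 and 822 CPM in WT libraries, with no overlap, and rose by a log2 change of 0.70 (SE 0.20, edgeR adjusted p = 0.0485). This call was lost without UFSP2-KO library a (0.53, adjusted p = 0.18), WT library a (0.84, 0.0842) or WT library b (0.61, 0.318) in edgeR, and with library size alone as scaling (0.56, 0.0723). ATF4 footprints did not follow with a call: they stood at 37.5 and 35.8 CPM against 33.5 and 25.7 in the membrane (0.34, SE 0.29, edgeR adjusted p = 0.491). In the cytosol they stood at 61.2 and 45.5 CPM against 55 and 47, and the groups overlap (0.054, SE 0.28, edgeR adjusted p = 0.957).

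SLC7A11 mRNA stood at 8.19 and 10.6 CPM in UFSP2-KO libraries, both below the WT libraries, and fell by 1.09 on the log2 scale (SE 0.29, edgeR adjusted p = 0.0324). Without UFSP2-KO library a (-0.91, adjusted p = 0.103), WT library a (-1.19, 0.0729) or WT library b (-0.94, 0.273) it was no longer called by edgeR. Its membrane footprints stood at 11.4 and 15.9 CPM against 20 and 22.1 in WT, again without overlap, with a change of -0.61 (SE 0.34, edgeR adjusted p = 0.26). SLC7A5 mRNA, the other transporter, stood at 46 and 37.7 CPM against 54.5 and 67.1 (-0.54, SE 0.22, edgeR adjusted p = 0.153).

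The targets CHOP, TRIB3 and SESN2 had lower mRNA values in UFSP2-KO cells that did not pass the test. DDIT3 stood at 10.9 and 6.04 CPM against 15.6 and 13 in WT (-0.74, SE 0.33, edgeR adjusted p = 0.177), and was called only without UFSP2-KO library a among the single libraries left out (-1.24, adjusted p = 0.0381). TRIB3 stood at 29.4 and 20 CPM against 39.4 and 45.1 (-0.77, SE 0.26, edgeR adjusted p = 0.0879), and likewise passed without UFSP2-KO library a (-1.08, adjusted p = 0.0271) and with only the groups compared (adjusted p = 0.0483). SESN2 stood at 25.6 and 18.1 CPM against 29.4 and 37.8 (-0.62, SE 0.26, edgeR adjusted p = 0.15). In all 3 genes the UFSP2-KO libraries lay below the WT libraries. How many of all features separate in this way was not counted. The same holds for every other gene whose groups are said not to overlap, so such a separation is a description only.

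None of the 4 enzymes was called in UFSP2-KO mRNA by edgeR. PHGDH stood at 146 and 107 CPM in UFSP2-KO against 179 and 226 in WT (-0.68, SE 0.22, edgeR adjusted p = 0.0755), and was called without UFSP2-KO library a (-0.92, adjusted p = 0.0312), with library size alone as scaling (-0.82, adjusted p = 0.0393) and with only the groups compared (adjusted p = 0.0429). MTHFD2 stood at 212 and 203 CPM against 173 and 139, both higher (0.41, SE 0.20, edgeR adjusted p = 0.219). PSAT1, at 97.4 and 103 CPM against 89.7 and 96.1, and ASNS, at 78.5 and 126 against 101 and 77.3, had changes of 0.11 and 0.20 with adjusted p of 0.784 and 0.673 in edgeR.

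PHGDH was the member with the firmest difference, and it lay in the footprints of both fractions. In the membrane PHGDH stood at 207 and 183 CPM in UFSP2-KO against 458 and 485 in WT, and fell by 1.27 on the log2 scale (SE 0.20, edgeR adjusted p = 0.000109). In the cytosol it stood at 176 and 182 CPM against 349 and 428, and fell by 1.12 (SE 0.20, edgeR adjusted p = 0.0013). Both UFSP2-KO libraries were below both WT libraries in each fraction. In each fraction the call stood under all 12 alternatives, leaving out each library among them, with values from -1.36 to -1.18 in the membrane and from -1.26 to -0.96 in the cytosol.

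PSAT1, the next enzyme of the same pathway, was not called: it stood at 113 and 148 CPM against 143 and 156 in the membrane (-0.20, SE 0.22, edgeR adjusted p = 0.616) and at 138 and 201 against 165 and 191 in the cytosol (-0.062, SE 0.22, edgeR adjusted p = 0.927). ASNS stood at -0.47 in the membrane (edgeR adjusted p = 0.272) and -0.21 in the cytosol (0.736).

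TRIB3 footprints stood at 2.84 and 3.58 CPM in the UFSP2-KO membrane libraries, from 5 and 9 counts, against 7.35 and 9.91 in WT, from 18 and 71 counts. TRIB3 fell there by 1.44 on the log2 scale (SE 0.47, edgeR adjusted p = 0.045). The call was lost without any 1 of the 4 libraries: UFSP2-KO a (-1.31, adjusted p = 0.21), UFSP2-KO b (-1.64, 0.192), WT a (-1.59, 0.0676) or WT b (-1.16, 0.328) in edgeR. DESeq2 did not call it (-1.41, adjusted p = 0.239). In the cytosol it stood at 4.44 and 5.87 CPM against 13 and 13.6, with a change of -1.30 (SE 0.43, edgeR adjusted p = 0.0883). SESN2 was lower in both UFSP2-KO libraries of each fraction as well, at 11.9 and 16.3 CPM against 23.7 and 24.3 in the membrane (-0.74, SE 0.28, edgeR adjusted p = 0.0887) and at 16.9 and 14.7 against 32 and 22.8 in the cytosol (-0.75, SE 0.30, edgeR adjusted p = 0.161).

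In count, 2 of 9 members were called in UFSP2-KO membrane footprints, both lower, beside 11.1% of all features, and 1 of 8 with a fold in the cytosol, beside 3.99%. The median log2 changes of the members were -0.47 and -0.14, beside 0.014 and 0.018 over all features. The cytosol count and median include SLC7A5 (0.89, SE 0.69), which passed the filter only through its membrane libraries and rests on 11 and 7 cytosol counts. MTHFD2 went the other way in the cytosol, at 110 and 138 CPM against 78.9 and 83.6 (0.62, SE 0.22, edgeR adjusted p = 0.117), with no overlap of the groups.

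**Figure D4:**
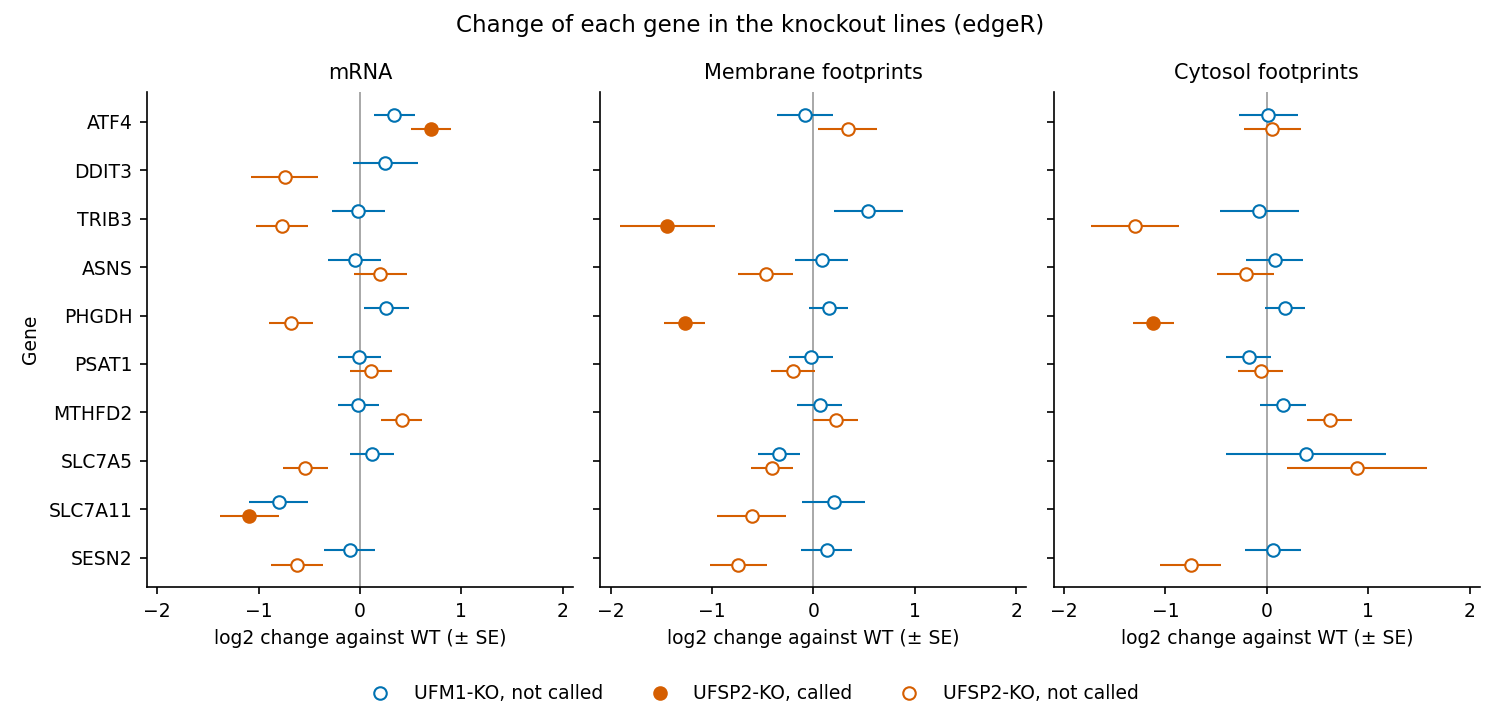
Log2 change of each gene against WT (edgeR, ± SE) in UFM1-KO (blue) and UFSP2-KO cells (orange) for mRNA, membrane and cytosol footprints; filled points were called at an adjusted p under 0.05. The filled points are ATF4 and SLC7A11 in mRNA, TRIB3 and PHGDH in the membrane and PHGDH in the cytosol, all in UFSP2-KO cells.

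The plot of changes against WT shows no call for UFM1-KO cells. The 2 lines were compared with the same WT libraries, so they were also compared with each other directly.

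UFM1-KO cells had more PHGDH than UFSP2-KO cells in all 3 measurements. The log2 difference was 0.93 in mRNA (SE 0.22, edgeR adjusted p = 0.0098), from 267 and 217 against 146 and 107 CPM. It was 1.42 in membrane footprints (SE 0.20, edgeR adjusted p = 1.17e-05), from 578 and 466 against 207 and 183 CPM, and 1.30 in cytosol footprints (SE 0.20, edgeR adjusted p = 0.000106), from 446 and 437 against 176 and 182 CPM. No library of one line overlapped the other. The mRNA call was lost without UFM1-KO library a (0.78, adjusted p = 0.0569) or UFSP2-KO library b (0.72, 0.0688) in edgeR, while both footprint calls stood under all 12 alternatives.

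TRIB3 membrane footprints were higher in UFM1-KO cells by 1.98 (SE 0.45, edgeR adjusted p = 0.00258), and this difference was 1.08 without UFM1-KO membrane library a (adjusted p = 0.259). SESN2 membrane footprints, at 26.6 and 25.8 against 11.9 and 16.3 CPM, were higher by 0.87 (SE 0.28, edgeR adjusted p = 0.0288). The SESN2 call was lost without any 1 of the 4 libraries: UFM1-KO a (0.84, adjusted p = 0.151), UFM1-KO b (0.88, 0.0759), UFSP2-KO a (0.68, 0.218) or UFSP2-KO b (1.13, 0.0639) in edgeR. DESeq2 did not call it (0.82, adjusted p = 0.193). In the cytosol TRIB3 differed by 1.22 (edgeR adjusted p = 0.0758) and SESN2 by 0.81 (edgeR adjusted p = 0.079).

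DDIT3 mRNA, at 14 and 20.1 against 10.9 and 6.04 CPM, differed by 1.0 (SE 0.33, edgeR adjusted p = 0.0505) and was called under 10 of 14 alternatives. TRIB3 mRNA differed by 0.75 (SE 0.26, edgeR adjusted p = 0.0633) and SLC7A5 mRNA by 0.65 (SE 0.22, edgeR adjusted p = 0.0586), neither of them called in the main test. TRIB3 was called with library size alone (edgeR adjusted p = 0.0487) or the length trend removed (0.0458). SLC7A5 was called with library size alone (edgeR adjusted p = 0.037) or DESeq2 (adjusted p = 0.0369). DDIT3, TRIB3 and SLC7A5 were each also called under an alternative chosen after seeing the data. SLC7A11 membrane footprints differed by 0.81 (SE 0.34, edgeR adjusted p = 0.0927), and by 1.26 without UFM1-KO membrane library a (adjusted p = 0.0397). ATF4 did not differ by a call between the 2 lines, at -0.36 in mRNA (edgeR adjusted p = 0.238), -0.42 in the membrane (0.318) and -0.04 in the cytosol (0.958). The members called were 1 of 10 in mRNA, 3 of 9 in the membrane and 1 of 8 in the cytosol, beside 15.9%, 21.4% and 12.0% of all features. All members called were higher in UFM1-KO cells. The 8 in the cytosol include SLC7A5, which passed the filter only through its membrane libraries.

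Whether footprints changed apart from mRNA was asked with an interaction term in the model over all 18 libraries. No member was called by edgeR or DESeq2 in either line or fraction. DDIT3 passed the filter of this model only through its mRNA, so its values carry no weight. The test called very few of all features, as given next, so it cannot show that footprints followed mRNA. For UFM1-KO membrane footprints edgeR called 0.0% of features, DESeq2 0.00626%, and 4.28% had an unadjusted p under 0.05, among them 1 member, SLC7A11 at 0.96 (SE 0.44, edgeR adjusted p = 0.983). For the UFM1-KO cytosol these shares were 0.0%, 0.0% and 5.96%, with 0 members. For UFSP2-KO membrane footprints they were 0.0792%, 0.291% and 8.79%, with 1 member, PHGDH at -0.64 (SE 0.29, edgeR adjusted p = 0.541). For the UFSP2-KO cytosol they were 0.0158%, 0.158% and 6.88%, with 1 member, SLC7A5 at 1.48 (SE 0.70, edgeR adjusted p = 0.705), which passed the filter only through other libraries and rests on 11 and 7 cytosol counts.

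ATF4, whose translation is the textbook readout of this response, stood at -0.49 (SE 0.38) and -0.33 (SE 0.38) in the UFM1-KO membrane and cytosol and at -0.40 (SE 0.38) and -0.59 (SE 0.38) in the UFSP2-KO fractions. None of these 4 values had an unadjusted p under 0.05 in edgeR's test.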

How the data were processed

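Ribosome footprints of membrane and cytosol extracts (12 libraries) and whole-cell mRNA (6 libraries) came from 3 HEK293 lines. The authors deposited raw read counts per transcript beside a length in codons. TopHat2 2.1.1 and GRCh38 are named in the submitters' processing notes; how reads shared by transcripts were counted is not given in the sources used here. Library totals over the deposited counts set the depth and are given with the results.

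Of 26679 footprint entries and 98334 mRNA entries (43611 of them without a length and with 0 counts), 25629 transcripts were matched by identifier and length, and entries with identical counts were merged. edgeR 4.0.16 in R 4.3.3 (TMM, filterByExpr with a minimum count of 10, quasi-likelihood test, two-sided) was run on all features, 13900 for mRNA, 11065 for footprints and 12629 jointly, with Benjamini-Hochberg adjustment and a threshold of 0.05 in 20 comparisons. All 10 members were named by rule. The scripts were tested on simulated data. Alternatives were RLE or library-size scaling, no filter, only the groups compared, a replicate block, removal of the length trend, unmerged entries, all mRNA entries, DESeq2 1.42.0 and leaving out each library. The members and lists were chosen with earlier results of these data known.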

Additional observations from a re-analysis of the deposited data

Results flagged for a closer look

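Results are listed here because the difference between the 2 knockout lines passed edgeR's test of that difference. PHGDH was higher in UFM1-KO than in UFSP2-KO cells by 0.93 in mRNA, 1.42 in membrane footprints and 1.30 in cytosol footprints on the log2 scale. In membrane footprints TRIB3 was higher in UFM1-KO cells by 1.98 and SESN2 by 0.87. The TRIB3 value was 1.08 without UFM1-KO membrane library a. The SESN2 call was lost without any 1 of the 4 libraries and with DESeq2 (0.82, adjusted p = 0.193). The PHGDH mRNA call was lost without UFM1-KO library a or UFSP2-KO library b. The test called 15.9% of all features in mRNA, 21.4% in membrane and 12.0% in cytosol footprints. Each line is 1 clone, so these differences and differences between clones cannot be told apart.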

How the results depend on the processing

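For the 60 member values with an unadjusted p under 0.05, 758 alternatives were computed: 669 kept direction and side of the threshold, 48 lost and 39 gained a call, and 2 changed sign; the cause was not tested. Those 2 came with library size alone, in WT footprints relative to mRNA: SLC7A11 in the membrane (-0.078) and ASNS in the cytosol (-0.019). Over all member values, called or not, 180 of 2457 alternatives changed the sign. In 9 of them the alternative was called: 8 with the length trend removed (ASNS and PHGDH between the fractions in each line, TRIB3 there in UFM1-KO cells, and MTHFD2 in WT cytosol footprints relative to mRNA) and SESN2 in WT membrane footprints relative to mRNA with library size alone. That scaling moved the median of all features to -0.94 in the membrane and -1.24 in the cytosol for these ratios, and to -0.14 for UFSP2-KO mRNA and 0.15 for UFM1-KO cytosol footprints.

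Counts of members called moved as follows. The share of all features called moved as well. It is given in this paragraph only for the calls between fractions with the length trend removed or with DESeq2, so the other counts have no background here. For UFSP2-KO against WT in mRNA the 2 members became 4 with only the groups compared, and 0 to 3 without one library. In the membrane the 2 became 1 with DESeq2 and 1 without any one library. For UFM1-KO against UFSP2-KO in mRNA the 1 became 2 with RLE factors, no filter or unmerged entries, 3 with the length trend removed or DESeq2, 4 with library size alone, and 0 to 3 without one library. In the cytosol the 1 became 3 with library size alone. Between fractions 9 members were called in each line with the length trend removed, and the 4 of UFM1-KO cells became 2 with DESeq2 and 2 to 4 without one library.

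The letters a and b were not shown to pair the libraries: same-letter deviations correlated at 0.0496 to 0.331 between footprint groups (0.153 to 0.16 within the membrane, 0.22 to 0.331 within the cytosol) and at -0.68, 0.0601 and -0.225 between mRNA groups. The replicate block gave 1 member for UFSP2-KO mRNA, without ATF4 (0.70, edgeR adjusted p = 0.0718), 2 for the UFSP2-KO cytosol, with MTHFD2 (0.047), 2 for mRNA between the knockout lines, with DDIT3 (0.0388), and 5 for their membrane footprints, with ASNS (0.0266) and SLC7A11 (0.0364). It called MTHFD2 between the WT fractions (0.0358), where the features called rose from 4153 to 4659. The block also raised the features called from 1232 to 1810 (UFSP2-KO membrane), 442 to 852 (UFSP2-KO cytosol) and 2372 to 3023 (membrane, between knockout lines). In mRNA it lowered them from 998 to 952 (UFSP2-KO) and from 2217 to 1906 (between knockout lines). With the UFSP2-KO mRNA letters crossed, a block chosen after seeing the data, edgeR called 6 members for UFSP2-KO mRNA and 4 between the knockout lines, and 888, 2208 and 3570 features in the 3 mRNA comparisons (UFM1-KO, UFSP2-KO, and 1 against the other) instead of 274, 998 and 2217. Footprint depth limits DDIT3 and cytosol SLC7A5 and SLC7A11, which have few or no counts.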

Other observations

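The ratio of PHGDH to PSAT1 counts within a library, which no scaling between libraries can move, was looked at after the values were seen. These enzymes carry out neighbouring steps of serine synthesis. In membrane footprints the ratio was 3.21 and 3.1 for the WT libraries, 3.82 and 3.27 for the UFM1-KO line, and 1.83 and 1.24 for the UFSP2-KO line. In the cytosol it was 2.12 and 2.24, 2.96 and 2.64, and 1.28 and 0.907 in the same order. In mRNA it was 2.0 and 2.35, then 2.56 and 2.68, then 1.5 and 1.03. The UFSP2-KO libraries were the lowest in each of the 3 measurements, with log2 differences from WT of -1.06, -1.02 and -0.80, and the UFM1-KO libraries lay above WT by 0.16, 0.36 and 0.28. With 2 libraries against 2, an exact two-sided permutation test cannot go below p = 0.333, and each of the 6 comparisons gave that value.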
